A study of Mus musculus with 3 samples.

Results

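The T-box factor family was followed in endothelial cells (ECs) of the adult mouse lung. Its 10 genes (*Tbx1*, *Tbx2*, *Tbx3*, *Tbx4*, *Tbx5*, *Tbx6*, *Tbx15*, *Tbx18*, *Tbx20* and *Tbx21*) were chosen by symbol, and all 10 had a row among the 24346 genes of the deposited table. T-box factors bind DNA through the domain that gives the family its name, first known from Brachyury. *Tbx2* and *Tbx3* act mainly as repressors, recruit histone deacetylases and hold back cell cycle inhibitors, whereas *Tbx5* and several other members mainly activate their targets. In the developing lung, *Tbx2*, *Tbx3*, *Tbx4* and *Tbx5* are known from the mesenchyme around the growing airways, where *Tbx4* and *Tbx5* are needed for branching.

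The samples were 3 bulk RNA-seq libraries of 1 condition, called S38, S44 and S52. All came from lungs of wild type male C57BL/6J mice aged 6 to 8 weeks that received an injected antibody against VE-cadherin, and the cells were stained for CD31, CD45 and podoplanin, sorted by FACS and used without culture. The sort aimed at blood vessel ECs as a whole, so arteries, capillaries and veins share each value. The labels do not say whether the libraries came from separate mice, so the SD and the p-values measure only the spread between these 3 libraries, which may be technical. There was no second condition, and no difference between organs, stages or genotypes was tested. Values for the libraries are given in the order S38, S44 and S52 throughout. They are in FPKM (fragment counts scaled to transcript length and to the number of mapped fragments), a scale corrected for length. Levels of different genes can be compared on it only roughly, since the lengths used are not given in the sources used here.

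Markers of the labelled cell type were abundant: 8 of 8 endothelial genes were at 1 FPKM or above in every library, beside 43.9% of all genes. Their library medians were 378, 393 and 379 FPKM. Transcripts of other cell types were abundant too, and the purity of the sort was not measured here. The airway gene *Scgb1a1* was at 2669, 2212.5 and 378 FPKM and the alveolar type 2 gene *Sftpc* at 3333, 2862 and 658 FPKM. In S38 and S44 each was above all 8 endothelial genes. Depth was estimated from the smallest values in the table as 38000000, 39400000 and 34600000 fragments. S52 stood apart in its levels of other cell types. The summed level of 5 alveolar type 2 genes was 3756, 3156 and 760 FPKM, and that of 4 airway genes was 2767, 2303 and 401 FPKM. For 4 platelet genes it was 1692, 1345 and 38 FPKM. In bulk RNA, fewer cells of a type and less RNA per cell cannot be told apart.

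A stretch of 30 coding bases is shown for the 4 members with a mean of 1 FPKM or above, called detected here, and *Tbx18*, a distant one, because it holds the longest run of bases shared by *Tbx2* and *Tbx3*, the pair on which the levels turn, and shows whether their reads can be told apart. The stretches are read from GENCODE M21 transcripts on GRCm38 (mm10), 5′ to 3′ on the transcript strand, and capitals mark bases identical to *Tbx3*.
Tbx3: CTATGCATAAGTACCAGCCGCGGTTCCACA
Tbx2: CcATGCAcAAGTACCAGCCGCGaTTCCACA
Tbx4: CcATGCATAAGTACCAGCCaaGGcTgCACA
Tbx5: CcATGCAcAAaTACCAGCCcCGaTTaCACA
Tbx18: CTATGCAcAAaTACCAaCCaCGtgTgCAtg
The *Tbx3* stretch lies in coding exon sequence at chr5:119675571-119675600 (plus strand, exon 4 of the transcript with its longest coding sequence). That of *Tbx2* lies at chr11:85835808-85835837 (plus strand, exon 3). *Tbx2* differed from *Tbx3* at 3 of the 30 bases, *Tbx4* at 5, *Tbx5* at 6 and *Tbx18* at 9, and the longest run shared by *Tbx2* and *Tbx3* transcripts was 14 bases. A read of 51 bases was therefore longer than any exact match between them. In the most similar coding windows of read length, *Tbx2* and *Tbx3* still differed at 6 bases and *Tbx4* and *Tbx5* at 4, and no window of that length was shared between any pair of the 10 members. Of the read windows of *Tbx18*, 18.2% also occurred in other genes, so its values are less certain than those of the other members.

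*Tbx3* and *Tbx2* were by far the most abundant members, *Tbx4* and *Tbx5* were detected at low levels, and the other 6 had means under 1 FPKM. *Tbx3*, known from heart, limb and mammary gland development and altered in ulnar-mammary syndrome, was at 70.1, 66.6 and 43.5 FPKM, a mean of 60.1 ± 14.5 FPKM (SD, n = 3). *Tbx2*, its closest relative and known from the patterning of the heart's chambers, was at 69.4, 63.4 and 39.4 FPKM, or 57.4 ± 15.9 FPKM. Their means exceeded those of 94.1% and 93.8% of all genes in the table. S38 and S44 lay close together for both genes, and S52 was the lowest.

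*Tbx4*, the hindlimb and lung mesenchyme factor, was at 5.14, 4.38 and 8.08 FPKM, a mean of 5.87 ± 1.96 FPKM. *Tbx5*, required for forelimb and heart formation and altered in Holt-Oram syndrome, was at 1.71, 0.973 and 2.80 FPKM, a mean of 1.83 ± 0.921 FPKM. For both, S52 was highest and S44 lowest, whereas S52 was lowest for *Tbx2* and *Tbx3*.

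The remaining 6 members had means below 1 FPKM. *Tbx21*, which encodes T-bet, the factor of type 1 helper T cells and natural killer (NK) cells, was at 0.330, 0.396 and 1.57 FPKM. *Tbx6*, a gene of the presomitic mesoderm, was at 0.760, 0.922 and 0.170 FPKM, and thus was lowest in the library in which *Tbx21* was highest. *Tbx1*, the pharyngeal gene of the DiGeorge syndrome region that is also known from lymphatic vessels, was at 0.356 and 0.409 FPKM in S38 and S44 and was listed at 0 in S52.

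The lowest 3 members were barely represented. *Tbx20*, a cardiac factor, was listed at 0 in S38 and at 0.0447 and 0.0140 FPKM in S44 and S52. *Tbx18*, known from the epicardium and from pericytes and smooth muscle, was at 0.0175, 0.00565 and 0.0195 FPKM. *Tbx15*, a gene of skeletal and adipose development, was listed at 0 in all 3 libraries.

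**Figure D1:**
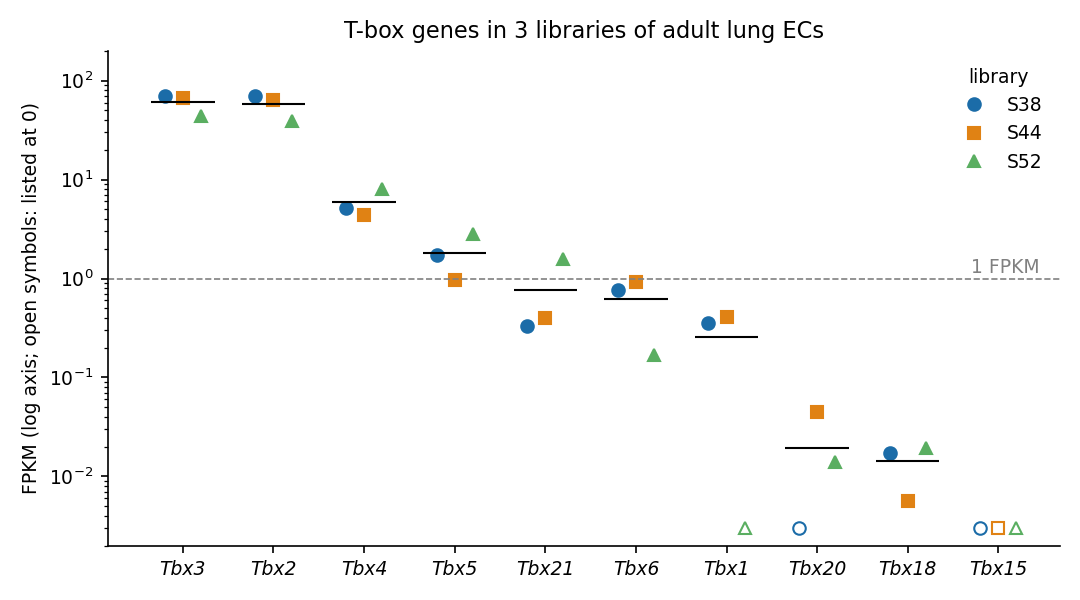
FPKM of the 10 T-box genes on a log axis, with 1 symbol for each library (circle S38, square S44, triangle S52), a bar at the mean, and open symbols at the bottom for values listed at 0. *Tbx3* and *Tbx2* sit between 39.4 and 70.1 FPKM in all 3 libraries, above every value of the other 8 genes, the highest of which is 8.08 FPKM for *Tbx4* in S52.

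Counted at a mean of 1 FPKM or above, 4 of the 10 members were detected (*Tbx2*, *Tbx3*, *Tbx4* and *Tbx5*), beside 48.3% of all genes in the table. At 1 FPKM or above in every library the count was 3 of 10, beside 43.9% of all genes, because *Tbx5* was just under the threshold in S44. At a mean of 10 FPKM the count was 2, *Tbx2* and *Tbx3*, beside 25.7%. A single member, *Tbx15*, was listed at 0 in every library, as were 29.5% of all genes. At 0.1 FPKM it was 7, beside 62.2%, and at 3 FPKM it was 3, beside 40%. The share of members detected was thus near that of the whole table.

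Families of other developmental transcription factors put these levels in proportion. Of 108 Sox, Fox, Gata and Hox genes in the table, 36 (33.3%) had a mean of 1 FPKM or above, and 16 had a mean of 10 FPKM or above. Of those 108 genes, 2 had a higher mean than *Tbx3*, and these, named after their values were seen, were *Foxf1* at 297 FPKM and *Gata2* at 100.4 FPKM. *Sox7*, at 57.5 FPKM, was the only further gene of the 108 above *Tbx2*. Other families were not counted, and some of their factors had higher means than *Tbx3*. Examples among the listed genes were *Irf1* at 639, *Klf4* at 305 and *Erg* at 62.4 FPKM, whereas others, such as *Elf1* at 40.4 FPKM, were lower. Among T-box genes outside the 10, 7 had a row, and 1 of them reached a mean of 1 FPKM. That gene was *Mga*, a large partner of Max that carries a T-box domain, at 9.15, 6.13 and 7.17 FPKM. *Eomes* was at 0.0301, 0.153 and 0.210 FPKM, and Brachyury (*T*), *Tbr1* and *Tbx22* were listed at 0 throughout.

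The weight of *Tbx2* and *Tbx3* against the rest was taken within each library. Together they made up 94.4%, 94.8% and 86.7% of the summed FPKM of the 10 members in S38, S44 and S52, a mean of 92.0 ± 4.53% (SD, n = 3). Their own sum was 139.4, 130.0 and 82.9 FPKM, and the other 8 members summed to 8.32, 7.13 and 12.7 FPKM. S52 therefore had the lowest level of the pair and the highest level of the rest, although the pair dominated in each library. The mean log2(FPKM + 1) of *Tbx2* and *Tbx3* exceeded that of the highest other member, *Tbx4*, by 3.52, 3.62 and 2.22, or 3.12 ± 0.78. The direction was the same in 3 of 3 libraries, and an exact two-sided sign-flip permutation test gave p = 0.25, the smallest value that 3 libraries allow.

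*Tbx3* was slightly above *Tbx2* in each library, with ratios of FPKM of 1.01, 1.05 and 1.10. On the log2(FPKM + 1) scale the difference was 0.014, 0.071 and 0.14, a mean of 0.075 ± 0.062 (SD, n = 3; exact sign-flip permutation test, p = 0.25). The difference was small beside the spread of either gene between libraries, and the ranges of the genes overlapped. With 12839 and 9135 fragments estimated behind the S38 values, the 95% counting intervals were 68.9 to 71.3 FPKM for *Tbx3* and 67.9 to 70.8 FPKM for *Tbx2* (exact Poisson, covering counting error only), and they overlapped. In S52 the intervals were 42.5 to 44.5 FPKM and 38.3 to 40.6 FPKM, and they did not. *Tbx3* has 3 basic transcripts, of 4777 to 4982 bp, whereas *Tbx2* has 1, of 3626 bp, and the length that the authors used for either gene is not given in the sources used here.

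Down the order of the 10 levels, neighbours were compared in 9 pairs. The order was set by the mean FPKM over the same 3 libraries, so the direction within a pair is no independent support. The ranges over the libraries did not overlap between *Tbx2* and *Tbx4*, between *Tbx4* and *Tbx5* or between *Tbx18* and *Tbx15*, and they overlapped in the other 6 pairs. *Tbx4* exceeded *Tbx5* by 1.18, 1.45 and 1.26 on the log2(FPKM + 1) scale, a mean of 1.29 ± 0.14, in 3 of 3 libraries. By exact permutation no pair could go below p = 0.25, or 0.375 after Benjamini-Hochberg adjustment over the 9. *Tbx21* and *Tbx6* changed places, with *Tbx21* lower by 0.40 and 0.46 in S38 and S44 and higher by 1.14 in S52, on the same scale.

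The depth behind the lower members decided how far their values could be read, and fragments were estimated for the longest transcript of each gene unless stated otherwise. *Tbx4* rested on an estimated 585, 513 and 826 fragments in S38, S44 and S52, and *Tbx5* on 246, 144 and 363. Their counting intervals in S52 (7.54 to 8.65 FPKM and 2.52 to 3.11 FPKM) lay above those in the other libraries, and these intervals cover counting error only, not the spread between samples. *Tbx21* rested on 29, 36 and 124 fragments, with intervals of 19.4 to 41.6, 25.2 to 49.8 and 103 to 148, and the interval of S52 did not overlap the others. *Tbx6* rested on 45, 56 and 9 fragments, and its interval in S52 reached 17.1 fragments, below the lower bounds of the other libraries.

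For *Tbx1*, an estimated 32 and 38 fragments stood behind S38 and S44 and 0 behind S52, and the floor of 3 fragments corresponds to 0.0375 FPKM for the longest and 0.0523 FPKM for the shortest transcript. *Tbx20* had 0, 16 and 4 fragments with its longest transcript of 9091 bp and 0, 3 and 1 with its shortest of 1801 bp, and *Tbx18* had 3, 1 and 3. For *Tbx15*, with 0 fragments in each library, the same floor corresponds to 0.0232, 0.0225 and 0.0258 FPKM, and the upper end of the exact Poisson 95% interval to 0.0285, 0.0277 and 0.0317 FPKM. Differences between libraries were not detectable for *Tbx18* and *Tbx15* at this depth, nor for *Tbx20* with its shortest transcript.

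**Figure D2:**
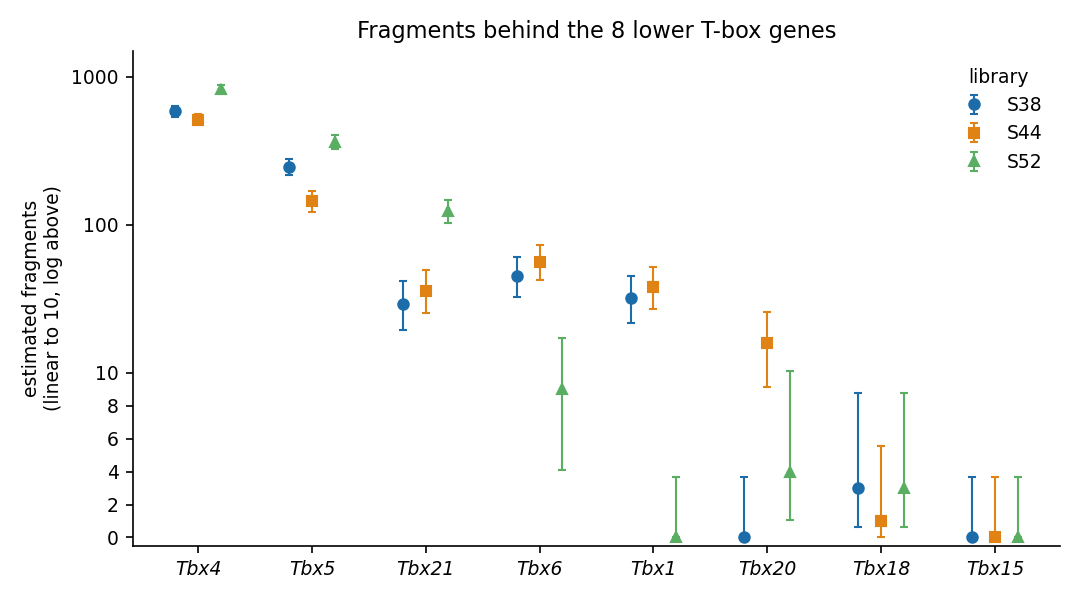
Estimated fragments behind the 8 lower T-box genes in each library, for the longest transcript (linear to 10, log above), with exact Poisson 95% intervals as bars. *Tbx4*, *Tbx5* and *Tbx21* are highest in S52, at 826, 363 and 124 fragments, while *Tbx6* and *Tbx1* are lowest there, at 9 and 0.

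Across the libraries, the 4 detected members split into pairs that differed in opposite directions in S52. *Tbx3* was lower in S52 by 0.68 than in S38 and by 0.60 than in S44 on the log2(FPKM + 1) scale, and *Tbx2* was lower by 0.80 and 0.67. *Tbx4* was higher in S52 by 0.56 and 0.76, and *Tbx5* by 0.49 and 0.95. Over all 11770 detected genes, the medians of the same differences were -0.083 and -0.062. The typical gene was thus also lower in S52, but by less than *Tbx2* and *Tbx3* were. S52 was the lowest library for 46.3% of detected genes and the highest for 33.9%. S38 and S44 lay within 1.5 times of each other for 3 of the 4, *Tbx5* being the exception, beside 86.3% of detected genes. Of the detected members, 2 were more than 1.5 times below both other libraries in S52, beside 15.2% of detected genes, and 2 were more than 1.5 times above both, beside 5.56%. At a fold of 2, a setting chosen after seeing the data, both counts were 0, beside 8.04% lower and 1.72% higher. These are differences between single libraries of 1 condition, with no test.

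Ratios within a library show the same split without any scaling between libraries. *Tbx2* was 13.5, 14.5 and 4.87 times the FPKM of *Tbx4* in S38, S44 and S52. *Tbx3* was 41.0, 68.5 and 15.5 times that of *Tbx5*, whereas *Tbx4* was 3.01, 4.5 and 2.88 times that of *Tbx5*. The ratios of *Tbx2* to *Tbx4* and of *Tbx3* to *Tbx5* were thus lowest in S52, while *Tbx3* and *Tbx2* stayed within 1.10 times of each other.

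Markers of mesenchymal cells moved with *Tbx4* and *Tbx5* in part, as did some markers of endothelial and alveolar type 1 cells. All 8 mural genes, those of pericytes and smooth muscle, were at a mean of 1 FPKM or above, beside 48.3% of all genes. Their summed level was 144, 79.0 and 160 FPKM. All 8 were lowest in S44, as were *Tbx4* and *Tbx5*, against 28.2% of detected genes, and 5 of the 8 were also highest in S52. *Pdgfrb*, the receptor that marks pericytes, was at 6.47, 4.80 and 10.1 FPKM, and *Notch3*, another mural receptor, was at 4.99, 1.80 and 7.23 FPKM. By contrast, *Acta2*, the most abundant of the 8, was highest in S38, at 90.3, 46.7 and 79.7 FPKM. So were *Myh11* (11.5, 4.72 and 10.5 FPKM) and *Kcnj8* (1.89, 0.795 and 1.79 FPKM). The pattern of lowest in S44 and highest in S52 was held by 17.8% of detected genes. It was also held by 1 of 8 endothelial genes (*Erg*, at 59.2, 43.1 and 84.8 FPKM) and 2 of 6 arterial genes. Among other lists, 2 of 4 alveolar type 1, 2 of 7 fibroblast and 0 of 5 lung capillary genes held it. The 7 fibroblast genes, also all detected, summed to 110, 88.0 and 81.6 FPKM, and *Dcn*, the matrix proteoglycan decorin, made up much of that sum at 47.4, 35.5 and 19.8 FPKM. Of the 7, 4 were lowest in S44 and 3 were highest in S52. The part of these cells in the levels of *Tbx4* and *Tbx5* was not tested. *Tbx18*, itself known from mural cells, had at most 3 estimated fragments in any library beside these levels, and *Tbx15* had 0.

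*Tbx2* and *Tbx3* shared their lowest library, S52, with alveolar type 2, airway and platelet markers, and with 46.3% of all detected genes. The 5 alveolar type 2 genes had a median log2(FPKM + 1) difference of -2.34 between S52 and S38, the 4 airway genes one of -2.04 and the 4 platelet genes one of -5.01. The 4 alveolar type 1 genes were divided, with 2 lowest and 2 highest in S52 and a median difference of 0.026. The 8 endothelial genes had a median difference of 0.092 against S38 and -0.056 against S44, with 2 of 8 lowest in S52. Those were *Kdr*, the VEGF receptor, with differences of -0.68 and -0.60, and *Cldn5*, a tight junction gene, with -0.53 and -0.75, sizes close to those of *Tbx2* and *Tbx3*. Of 5 lung capillary genes, *Car4*, a carbonic anhydrase gene (-0.55 and -0.72), and *Ednrb*, an endothelin receptor gene (-0.91 and -1.03), were also lowest in S52, and the other 3 were highest there. The part of these cell types in the levels of *Tbx2* and *Tbx3* was not tested.

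*Tbx21* was highest in S52, where most marker transcripts of the cells that T-bet is best known for were lowest. The 7 T and NK cell genes summed to 10.4, 11.6 and 0.464 FPKM, and 5 of them (*Cd3e*, *Cd3g*, *Nkg7*, *Klrb1c* and *Ncr1*) were listed at 0 in S52, where *Tbx21* was highest. None of 4 T-bet targets reached a mean of 1 FPKM, beside 48.3% of all genes, and the interferon gene *Ifng* was at 0, 0.392 and 0 FPKM. The *Tbx21* values of S38 and S44 rest on an estimated 29 and 36 fragments. The part of these cells in the level of *Tbx21* was not tested.

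**Figure D3:**
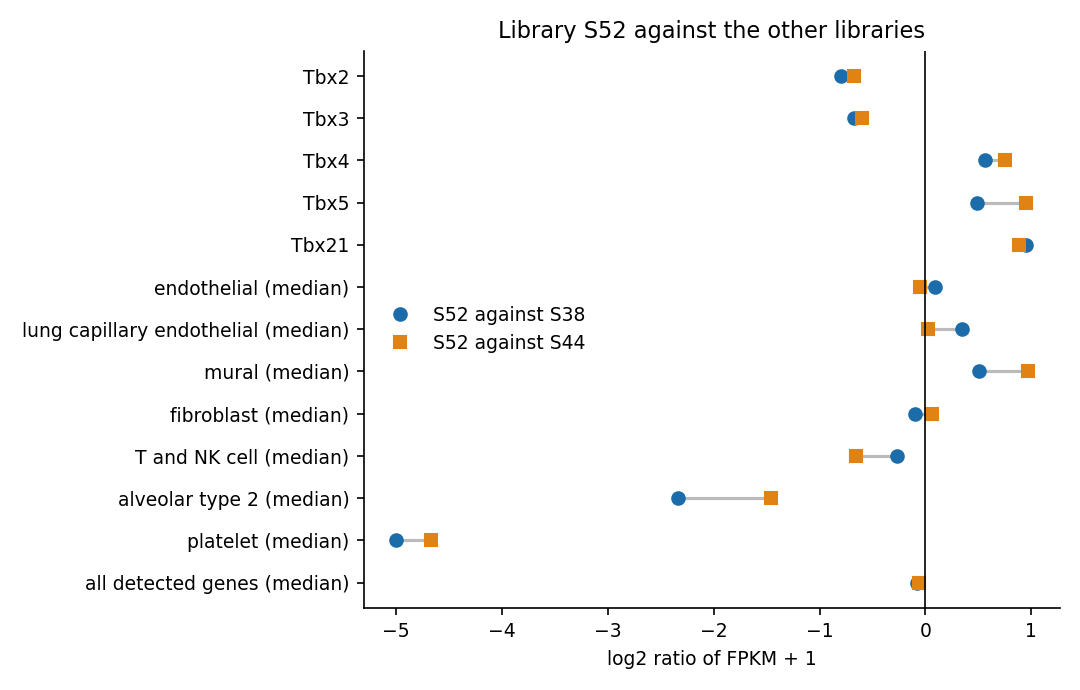
Difference in log2(FPKM + 1) of S52 from S38 (circles) and from S44 (squares) for 5 T-box genes, for the median of 7 marker lists and for the median of all detected genes. *Tbx2* and *Tbx3* lie left of 0, between -0.80 and -0.60, and *Tbx4*, *Tbx5* and *Tbx21* lie right of it, between 0.49 and 0.95.

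For the remaining low members, markers of the tissues they are known from were also read. *Tbx1* was listed at 0 in S52, where the lymphatic chemokine *Ccl21a* was also at 0 after 9.41 and 10.3 FPKM in S38 and S44. *Prox1*, the defining lymphatic factor, was at 0.132, 0.173 and 0.598 FPKM and so was highest in S52. Of the 6 lymphatic genes, 4 were lowest in S52 and 2 were highest there. Of the 6 cardiomyocyte genes, 4 had a mean of 1 FPKM or above, beside 48.3% of all genes, and 4 of the 6 were lowest in S52. *Actc1*, the cardiac actin gene and the most abundant of them, was at 18.6, 13.4 and 30.6 FPKM, whereas the atrial light chain *Myl7* was at 20.4, 11.7 and 0 FPKM, so the list gave no single order of libraries beside *Tbx20*. All 4 mesothelial genes were at 0 in S52. The part of these cells in the levels of *Tbx1* and *Tbx20* was not tested.

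A pair of gene neighbourhoods holds the 4 detected members, since *Tbx2* and *Tbx4* are linked on chromosome 11 and *Tbx3* and *Tbx5* on chromosome 5, an arrangement known to have arisen from the duplication of an ancestral pair. On GRCm38, *Tbx2* spans chr11:85832551-85841948 and *Tbx4* chr11:85886422-85916097, both on the plus strand, with a gap of 44473 bp between them. *Tbx3* spans chr5:119670669-119684724 and *Tbx5* chr5:119832668-119885219, again on the plus strand, with a gap of 147943 bp. In each pair the upstream repressor was high and the downstream gene low, in all 3 libraries.

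Around *Tbx2*, 7 other genes within 250 kb had a row, and 4 of them reached a mean of 1 FPKM. *Bcas3*, the large gene that ends upstream of *Tbx2*, was at 11.3, 11.8 and 11.4 FPKM and thus hardly varied between libraries in which *Tbx2* differed 1.76 times. *2610027K06Rik*, a noncoding gene on the opposite strand separated from the start of *Tbx2* by 327 bp, was at 2.33, 2.68 and 0.854 FPKM, and was lowest in S52 as *Tbx2* was. Around *Tbx3*, 3 other genes had a row and *Tbx5* alone reached 1 FPKM. The antisense gene *Tbx3os1* overlaps *Tbx3* by 697 bp and shares 66 of its 6661 read windows (0.991%), and it was not analysed here. Because the libraries carry no strand information, reads of the overlap cannot be assigned to one of these genes.

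**Figure D4:**
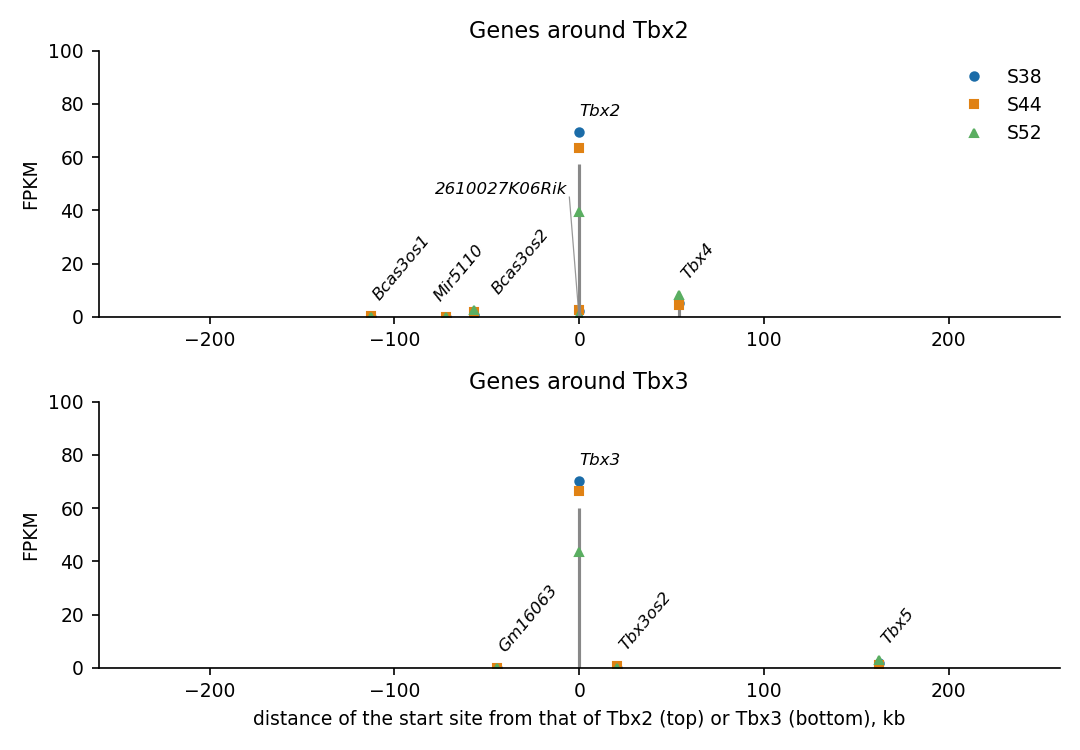
FPKM of genes around *Tbx2* (top) and *Tbx3* (bottom) against the distance between start sites in kb, with symbols for the 3 libraries and a bar to the mean; only genes with a row and a start within 250 kb are drawn. *Tbx2* and *Tbx3* stand far above their neighbours, and *Tbx4* and *Tbx5* follow downstream at means of 5.87 and 1.83 FPKM.

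The corepressors through which *Tbx2* and *Tbx3* are known to act were all detected. All 10 listed genes (histone deacetylases, the Ncor proteins, the retinoblastoma protein and Groucho relatives) had means of 1 FPKM or above, beside 48.3% of all genes. *Hdac1*, which *Tbx2* and *Tbx3* are known to recruit, was highest at 55.5, 57.8 and 64.8 FPKM. The median difference of the 10 between S52 and S38 was -0.22 on the log2(FPKM + 1) scale. Partners known from the heart were mostly low: of 6, *Gata6* and *Mef2c* were above 1 FPKM, beside 48.3% of all genes. *Nkx2-5* was listed at 0 throughout.

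Targets that *Tbx2* and *Tbx3* are known to repress in other tissues were largely detected. A mean of 1 FPKM or above was held by 8 of 9, beside 48.3% of all genes. *Cdkn1a*, the p21 cell cycle inhibitor, was at 504, 686 and 642 FPKM. It was lowest in S38, where *Tbx2* and *Tbx3* were highest, but was highest in S44 and not in S52, where they were lowest. *Ndrg1*, a stress response gene, was at 65.0, 64.9 and 29.9 FPKM and was lowest in S52, as were both T-box genes. *Cdkn2a*, the other cell cycle inhibitor of the list, was at 0.872, 6.07 and 2.90 FPKM, and the E-cadherin gene *Cdh1*, also an epithelial marker, was at 7.48, 3.77 and 1.64 FPKM. Of the 9, 0 were highest in S52, beside 33.9% of detected genes, and 5 were lowest there, beside 46.3%.

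Of 7 signals known to induce or cooperate with these factors in the embryo, 5 were detected, beside 48.3% of all genes. *Bmp4*, an inducer of *Tbx2* and *Tbx3*, was at 14.8, 7.03 and 10.7 FPKM, an order of libraries that neither gene shared. *Bmp2* was at 0.911, 0.840 and 2.25 FPKM, highest in S52, and *Fgf8* was listed at 0. *Fgf10*, the mesenchymal growth factor that acts downstream of *Tbx4* and *Tbx5* in lung branching, was at 1.48, 0.915 and 0.805 FPKM and was lowest in S52, where both genes were highest.

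The study's regulatory network around *Tbx3* in kidney ECs was read in the lung from 16 of its genes. Of these, 15 had a mean of 1 FPKM or above, beside 48.3% of all genes, *Gata5* being the exception. All 16 were chosen because the study named them in kidney ECs, which made their detection in other ECs likely beforehand. *Irf1*, an interferon response factor, was at 404, 636 and 877 FPKM, *Klf4*, a flow-responsive factor, at 281, 273 and 361 FPKM, and *Smad6*, an inhibitor of BMP signalling, at 141, 120 and 100.5 FPKM. In S52, 10 of the 16 were highest, beside 33.9% of detected genes, and 5 were lowest, beside 46.3%. *Smad6* was thus ordered as *Tbx3* was, and so were *Rap1b* (489, 484 and 433 FPKM) and *Pcdh17* (16.4, 16.3 and 13.6 FPKM). *Irf1* was ordered in the opposite way, as were *Ehd3* (5.43, 6.87 and 7.06 FPKM), *Slc44a2*, *Stat3*, *Spry4* and *Fgf1*. After loss of *Tbx3* in kidney ECs the study reported *Smad6*, *Ehd3* and *Slc44a2* as lower and the others named here as higher. Each order of libraries thus held genes of both directions.

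**Figure D5:**
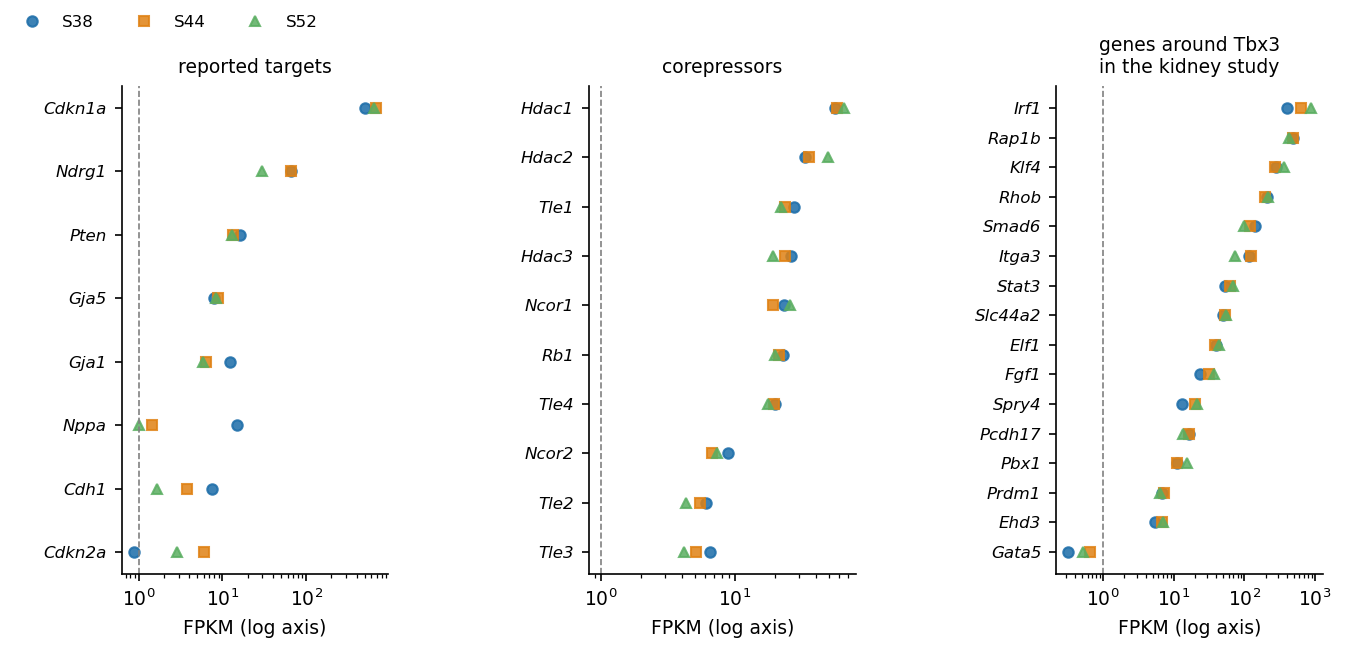
FPKM on log axes of 8 genes known as targets of *Tbx2* or *Tbx3*, 10 corepressors and 16 genes of the kidney network, with symbols for the 3 libraries and a dashed line at 1 FPKM; genes with a mean under 0.1 FPKM are not drawn. All but *Gata5* have means above the line, and *Cdkn1a* and *Irf1* lie highest in their panels, at means of 611 and 639 FPKM.

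Genes whose profile over the 3 libraries was most like *Tbx3* were ranked by the largest difference in log2(FPKM + 1) after centring each gene on its mean, among 6268 other genes whose mean reached 10 FPKM. The closest was *Kdr*, the VEGF receptor of endothelium, at 380, 360 and 237 FPKM, with a largest difference of 0.0028. *March6*, an E3 ubiquitin ligase gene, was next, followed by *Prpf38a*, a splicing factor gene, and *Pdcl*. *Tbx2* ranked 93 with a largest difference of 0.064, and 205 genes lay within 0.1 of *Tbx3*, so the likeness of the paralogues was close but shared with many genes. The genes most like *Tbx2* were *Glb1*, the lysosomal beta-galactosidase gene, *Mast2*, *Tmsb4x*, an actin-sequestering thymosin gene, *Aprt* and *Cldn12*, and *Tbx3* ranked 62. With 3 libraries, a profile is little more than the contrast of S52 with the other libraries.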

How the data were processed

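Poly-A RNA libraries of lung ECs (non-stranded TruSeq kit, paired reads of 51 bp) were sequenced on 1 condition with 3 libraries, grouped by their sample titles. The authors deposited 1 table of FPKM values per gene symbol on mm10. The submitters' processing notes name bcl2fastq 2.17, FastQC 0.11.5, Trimmomatic 0.36, TopHat2 2.1.0 and Cufflinks 2.2.1 without their roles, whereas the study's methods describe STAR and HTSeq for counts; the tool and annotation behind the FPKM values are not given in the sources used here.

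Values were used as deposited, with no count model and no rescaling. Detection meant a mean of at least 1 FPKM. Differences within a library used log2(FPKM + 1), a pseudocount of 1 that understates changes of low genes, and were tested with exact two-sided sign-flip permutation. Positions and transcripts came from GENCODE M21 (GRCm38), in which 23310 symbols (95.7%) were found. Short noncoding genes took 59.6 to 70.2% of the column sums. Depth was estimated as the step that makes low values of 7077 single-transcript genes whole fragments, after subtracting 160 to 200 bp from the length, and 76.7 to 79.1% of low values came within 0.15 of a whole number. The method was tested only on simulated whole fragments that follow its own formula. That test cannot show whether the formula holds for the deposited values. Intervals are exact Poisson at 95%. Scripts ran in Python 3.11.15 with SciPy 1.17.1.

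Named genes were the 10 members, the pathway and marker lists, genes within 250 kb of *Tbx2* or *Tbx3*, and the 5 genes most like each; a few of these are not reported here. The members and lists were chosen with earlier results of these data known. Alternatives covered the detection threshold, the pseudocount, the scaling and each library left out.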

Additional observations from a re-analysis of the deposited data

How the results depend on the processing

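Detected members numbered 4 at 1 FPKM, 7 at 0.1 FPKM, 3 at 3 FPKM and 2 at 10 FPKM, and 4 without any 1 library. Leaving out 1 library put *Tbx3* between 55.1 and 68.3 FPKM, *Tbx2* between 51.4 and 66.4 FPKM, the log2 difference of *Tbx3* from *Tbx2* between 0.043 and 0.10, the lead of the pair over the highest other member between 2.87 and 3.57, and their share between 90.6 and 94.6%. The rank of *Tbx2* among genes like *Tbx3* was 93, and became 173 with a minimum of 1 FPKM and 221 with none, since more genes are ranked. At a fold of 2 in place of 1.5, a setting chosen after seeing the data, 0 members were lower in S52 than in both other libraries (8.04% of detected genes) and 0 were higher (1.72%). Rescaling the libraries put *Tbx3* between 59.9 and 61.7 FPKM and *Tbx2* between 57.2 and 59.1 FPKM. Under an equal sum the median difference of detected genes between S52 and S38 was -0.35, and S52 still held the lowest values of *Tbx2* and *Tbx3* and the highest of *Tbx4*, *Tbx5* and *Tbx21*. The mean of *Tbx21* was 0.765 FPKM, and 0.363 FPKM without S52; that of *Tbx20* was 0.0196 FPKM, and 0.00702 FPKM without S44. Both differences within a library kept their direction under the pseudocounts and libraries tried. No paired analysis was possible because there is 1 group. The 3 libraries limit every p-value to 0.25, and depth limits what can be said of *Tbx18*, *Tbx20* and *Tbx15*.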
